A study of Mus musculus with 12 samples.

Results

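Tendon genes were measured in hind limb muscle of mice with and without αB-crystallin and HspB2, fed normal chow or a high fat diet. They are 9 genes taken by symbol, namely Scx, Mkx, Tnmd, Fmod, Kera, Chad, Thbs4, Comp and Cilp2, of 22923 gene symbols in all. The genes were chosen by name with the FPKM levels of these samples and their group differences already known, so the values and tests given here describe the genes and are no independent support for a pattern. Each member had 1 row in every sample, so no choice between repeated rows was needed.

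RNA was taken from the proximal hind limb of 12 male mice at 22 weeks of age, all on the FVB background (FVB/N in the study's methods), with 3 mice in each of 4 groups. WT mice carried both genes, and KO mice were a single line in which Cryab, the gene of αB-crystallin, and Hspb2 are deleted throughout the body, so an effect of either gene alone cannot be separated. The KO mice and their WT littermates came from heterozygous parents, although the sample titles call the WT samples Flox. In both genotypes 1 group ate normal chow and the other a high fat diet, in which most calories came from fat; they are called chow-fed and fat-fed here. The study asked how the deletion and the diet act on glucose and insulin responses, and sequenced muscle to compare the transcriptomes.

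Tendon is made by tenocytes, fibroblast-like cells that lay down parallel collagen fibrils and join the fibrils with small proteoglycans and large glycoproteins. The transcription factors Scx (scleraxis) and Mkx (mohawk) act in the formation of tendon, and tenomodulin (Tnmd), a membrane glycoprotein, is a classical marker of the mature tenocyte. Limb muscle is dissected with variable amounts of tendon, aponeurosis and fascia, and in a whole-tissue sample more tenocytes and more RNA per tenocyte cannot be told apart.

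The members lie on 8 chromosomes in the GENCODE M21 annotation of GRCm38. Cilp2 and Comp share chromosome 8, where 485870 bp separate them. The stretch upstream of the transcription start is shown for 4 members, Tnmd as the tenocyte marker, Fmod and Chad as the members with the largest fitted diet differences in WT mice and Thbs4 as the one with the smallest p. The RefSeq promoter table of GRCm38.p6 held 6 members; Scx, Mkx and Comp were not matched. Capitals mark CANNTG, the E-box letters that basic helix-loop-helix factors, Scx among them, can bind. These letters read the same on both strands. The Tnmd stretch is chrX:133850758-133850979 on the plus strand, the Fmod stretch chr1:134037004-134037253 on the plus strand, the Chad stretch chr11:94564797-94565046 on the plus strand and the Thbs4 stretch chr13:92794819-92795068 on the minus strand.
Tnmd: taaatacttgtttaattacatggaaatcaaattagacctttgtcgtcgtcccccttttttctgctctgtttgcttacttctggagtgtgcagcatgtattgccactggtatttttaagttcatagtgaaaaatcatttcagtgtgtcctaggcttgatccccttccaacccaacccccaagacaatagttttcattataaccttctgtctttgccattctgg
Fmod: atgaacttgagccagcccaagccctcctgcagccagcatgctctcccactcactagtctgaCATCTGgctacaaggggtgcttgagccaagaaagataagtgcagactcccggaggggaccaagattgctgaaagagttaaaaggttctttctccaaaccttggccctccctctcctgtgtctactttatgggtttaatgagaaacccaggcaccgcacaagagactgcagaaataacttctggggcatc
Chad: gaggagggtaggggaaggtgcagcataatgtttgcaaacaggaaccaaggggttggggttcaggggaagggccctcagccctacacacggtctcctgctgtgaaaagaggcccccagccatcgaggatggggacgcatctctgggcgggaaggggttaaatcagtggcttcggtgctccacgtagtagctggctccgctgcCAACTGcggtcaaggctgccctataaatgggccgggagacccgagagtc
Thbs4: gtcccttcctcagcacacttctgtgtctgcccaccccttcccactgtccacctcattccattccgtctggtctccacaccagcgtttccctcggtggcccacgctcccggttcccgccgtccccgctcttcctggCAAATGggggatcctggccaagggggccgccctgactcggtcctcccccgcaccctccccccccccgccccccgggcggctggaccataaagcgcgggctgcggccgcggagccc

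In windows of 250 bases before the RefSeq start, 4 of the 6 members held at least 1 CANNTG, as did 66.2% of 32851 mouse promoters. For Kera and Cilp2 this window lies inside the gene span of the GENCODE annotation, which begins further upstream. For Tnmd the last 28 bases of the window do so, and they are not shown above. The match began at position -189 from the start in Fmod, -156 in Cilp2, -115 in Thbs4 and -49 in Chad, and none was found in Tnmd or Kera. TATAAA on the gene strand was found in Chad only of the 6, and in 7.59% of all promoters. The matches describe these letters and were not tested as binding sites.

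Values are FPKM, fragments per kilobase of transcript scaled to the mapped fragments of the sample, so levels can be compared between genes. The totals of FPKM per sample, without a single extreme microRNA gene, lay between 484182 and 691621, and the number of reads per sample is unknown. The genotype field of 6 samples conflicts with the title, namely all 3 fat-fed WT samples, replicate 3 of chow-fed KO mice and replicates 1 and 2 of fat-fed KO mice. Cryab was 412 to 837 FPKM in the samples titled WT and 0.845 to 1.75 FPKM in those titled KO, and Hspb2 was 81.5 to 103 and 0.353 to 1.92 FPKM. Both matched the titles in 12 of 12 samples, and the titles were used. The samples did not look alike in every respect, and 3 stood apart by B and T cell genes: the 10 lymphoid markers summed to 74.4 FPKM in replicate 2 of chow-fed WT mice and to 86.4 and 86.9 FPKM in replicates 1 and 3 of chow-fed KO mice, and to at most 6.80 FPKM in the other samples. Replicate 3 of fat-fed WT mice stood apart by bone genes, and replicate 1 of that group by low adipocyte genes other than Fabp4, both described below. The 10 myofibre markers summed to 59776 to 104486 FPKM per sample. Of these, Myh4 was listed at 0 in every sample and Acta1, the skeletal actin, in replicate 1 of chow-fed WT mice and replicate 2 of fat-fed KO mice, so a listed 0 can be a failed estimate; no member was listed at 0.

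The highest tendon gene levels were found in fat-fed WT mice. Summed over the 9 members, the level was 39.8, 82.2 and 112 FPKM in replicates 1 to 3 of chow-fed WT mice, and 289, 496 and 383 FPKM in fat-fed WT mice. In KO mice the sum was 45.8, 39.9 and 107 FPKM with chow and 204, 86.9 and 79.4 FPKM with the fat diet. The 3 fat-fed WT samples lay above the other 9 samples. Fmod and Thbs4 made up most of each sum, Fmod with a mean of 66.4 FPKM over 12 samples and Thbs4 with 51.3 FPKM, followed by Comp with 10.9, Chad with 9.82, Tnmd with 9.05, Kera with 6.97, Scx with 5.34, Cilp2 with 3.32 and Mkx with 0.414 FPKM.

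**Figure D1:**
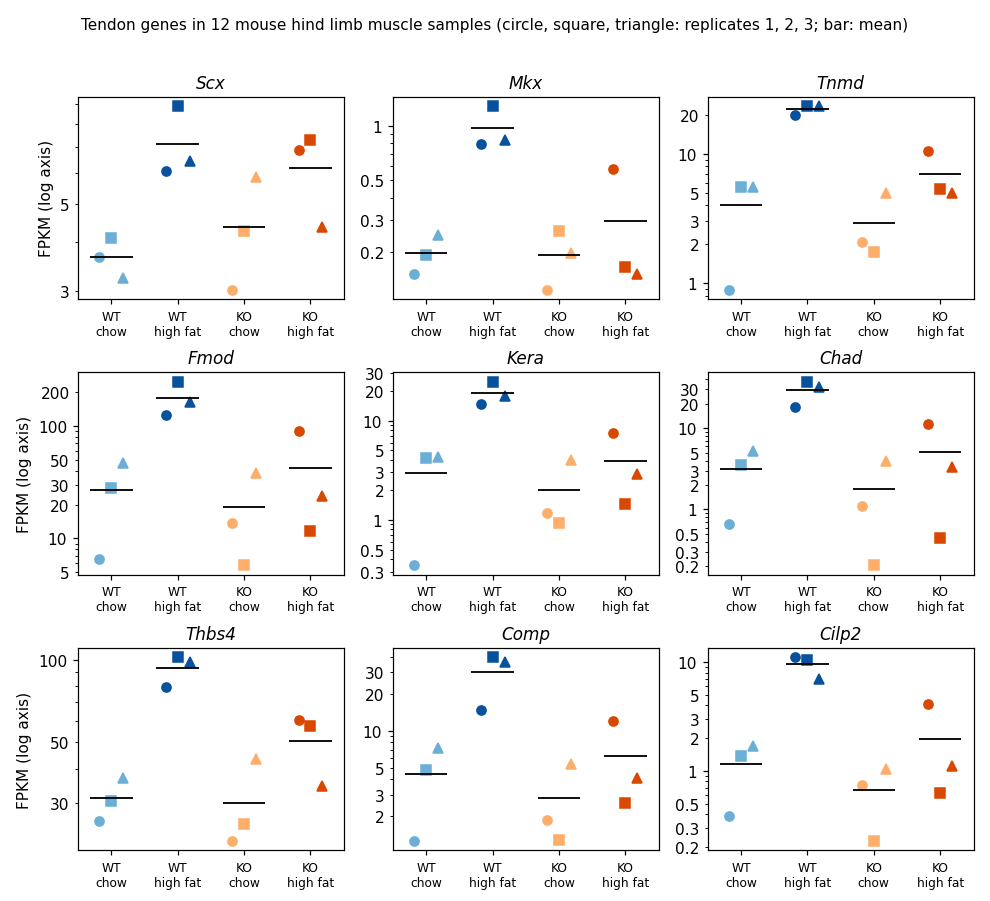
Level of each of the 9 tendon genes in FPKM on a log axis, by group; symbols are the 3 mice and the bar is the group mean. In 8 of the 9 panels the 3 fat-fed WT samples lie above all samples of the 3 other groups, and in the Scx panel they overlap with fat-fed KO mice. No share of all genes is available for this count, which only describes the members.

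Scx is the basic helix-loop-helix factor of tendon progenitors. It stood at 3.66, 4.10 and 3.23 FPKM in chow-fed WT mice and at 6.06, 8.89 and 6.45 FPKM in fat-fed WT mice. KO mice had 3.02, 4.27 and 5.84 FPKM with chow and 6.87, 7.26 and 4.38 FPKM with the fat diet. The WT diet groups did not overlap, the KO diet groups did, and the highest sample was only 2.94 times the lowest, the narrowest range of the 9 genes. Scx (chromosome 15, 76457452 to 76459458, plus strand) lies inside an intron of Bop1, a ribosome biogenesis gene on the opposite strand, and whether counting used the strand is not given in the sources used here. Bop1 ranged from 14.6 to 18.6 FPKM over the 12 samples.

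Mkx, a homeobox factor of tendon, was the least abundant member. Its level was 0.152, 0.192 and 0.250 FPKM in chow-fed WT mice, and 0.787, 1.28 and 0.828 FPKM in fat-fed WT mice. In KO mice it was 0.124, 0.261 and 0.198 FPKM with chow and 0.579, 0.166 and 0.152 FPKM with the fat diet. Only 1 sample reached 1 FPKM, so Mkx did not pass the filter for testing and 8 of the 9 members were tested. A sense-overlapping transcript, AC148004.2, shares 2104 bp with Mkx on chromosome 18 (6934518 to 7004780, minus strand).

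Tnmd (chromosome X, 133850980 to 133865577, plus strand) stood at 0.888, 5.53 and 5.56 FPKM in chow-fed WT mice. In fat-fed WT mice it reached 20.1, 23.5 and 23.3 FPKM. In KO mice it was 2.099, 1.73 and 4.95 FPKM with chow and 10.5, 5.36 and 5.02 FPKM with the fat diet. Tnmd was the only member for which the diet groups also did not overlap in KO mice, with 4.95 FPKM the highest value on chow and 5.02 FPKM the lowest on the fat diet.

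Fmod, Kera and Chad encode small leucine-rich repeat proteins of the matrix. Fibromodulin (Fmod, chromosome 1, 134037254 to 134048277, plus strand) binds collagen fibrils. Fmod was 6.58, 27.9 and 46.9 FPKM in chow-fed WT mice and 124, 247 and 162 FPKM in fat-fed WT mice. In KO mice Fmod was 13.8, 5.78 and 37.9 FPKM with chow and 90.3, 11.8 and 23.8 FPKM with the fat diet. All 3 fat-fed WT samples lay above the highest KO sample, and replicate 1 of fat-fed KO mice lay far above the other KO samples.

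Keratocan (Kera, chromosome 10, 97606879 to 97613692, plus strand) is a keratan sulfate proteoglycan best known from the cornea. It measured 0.347, 4.15 and 4.30 FPKM in chow-fed WT mice and 14.7, 24.8 and 17.5 FPKM in fat-fed WT mice, against 1.16, 0.929 and 3.97 FPKM and 7.47, 1.44 and 2.93 FPKM in KO mice on the respective diets. Chondroadherin (Chad, chromosome 11, 94565047 to 94569127, plus strand) is a cell-binding protein of cartilage and tendon. Chad measured 0.672, 3.57 and 5.203 FPKM in chow-fed WT mice and 18.4, 37.4 and 32.1 FPKM in fat-fed WT mice. In KO mice Chad measured 1.11, 0.206 and 3.98 FPKM with chow and 11.4, 0.446 and 3.31 FPKM with the fat diet. The highest Chad value was 182 times the lowest, the widest range of the 9 genes. Chad lies within the span of Acsf2 on the opposite strand without touching an Acsf2 exon, and Acsf2 ranged from 2.18 to 6.997 FPKM.

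Thbs4 and Comp encode pentameric thrombospondins of the tendon matrix. Thrombospondin 4 (Thbs4, chromosome 13, 92751590 to 92794818, minus strand) was 25.9, 30.6 and 37.2 FPKM in chow-fed WT mice and 79.7, 102 and 98.0 FPKM in fat-fed WT mice. KO mice had 21.9, 25.2 and 43.4 FPKM of Thbs4 with chow and 60.2, 57.3 and 34.7 FPKM with the fat diet. Comp, the cartilage oligomeric matrix protein (chromosome 8, 70373558 to 70382066, plus strand), was 1.26, 4.79 and 7.24 FPKM in chow-fed WT mice and 14.7, 39.8 and 36.1 FPKM in fat-fed WT mice. KO mice had 1.87, 1.28 and 5.30 FPKM of Comp with chow and 12.1, 2.55 and 4.12 FPKM with the fat diet. For both genes the WT diet groups were separate and the KO diet groups overlapped. Cilp2, a cartilage intermediate layer protein (chromosome 8, 69880369 to 69887687, minus strand), was 0.381, 1.37 and 1.70 FPKM in chow-fed WT mice and 11.1, 10.4 and 7.05 FPKM in fat-fed WT mice. In KO mice Cilp2 was 0.740, 0.227 and 1.03 FPKM with chow and 4.15, 0.627 and 1.10 FPKM with the fat diet.

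High fat diet in WT mice went with higher values of every member. The mean of Chad on high fat diet was 9.31 times that on normal chow, that of Cilp2 8.28, of Comp 6.81, of Fmod 6.54, of Kera 6.48, of Tnmd 5.59, of Mkx 4.87, of Thbs4 2.99 and of Scx 1.95 times. The diet groups did not overlap for 9 of 9 members, Mkx included, against 6.2% of all 11945 tested genes in that direction. Differences were fitted for all tested genes with limma on log2(FPKM + 1), which understates the change of low genes, and adjusted by the Benjamini-Hochberg method over all of them. The log2 difference was 3.01 ± 0.76 (SE) for Chad, 2.97 ± 0.84 for Fmod, 2.59 ± 0.61 for Comp, 2.56 ± 0.58 for Kera, 2.43 ± 0.46 for Tnmd, 2.32 ± 0.40 for Cilp2, 1.56 ± 0.26 for Thbs4 and 0.79 ± 0.21 for Scx. None passed the threshold of 0.05 after adjustment, where 0.1% of all genes did. The limma adjusted p was lowest, at 0.0802, for Thbs4 and Cilp2 and highest, at 0.252, for Fmod. At an unadjusted p under 0.05, 8 of the 8 tested members were higher, beside 4.42% of all genes. The median log2 difference was 2.49 over the 8 tested members and -0.01 over all genes. In the fit without the filter on low values, Mkx differed by 0.71 ± 0.13 with a limma adjusted p of 0.116.

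High fat diet in KO mice went with smaller differences, and with 1 sample above the rest. The mean on high fat diet was 2.94 times that on normal chow for Cilp2, 2.86 for Chad, 2.39 for Tnmd, 2.22 for Comp, 2.19 for Fmod, 1.95 for Kera, 1.68 for Thbs4, 1.54 for Mkx and 1.41 times for Scx. The groups were separate for 1 of 9 members, Tnmd, beside 10.7% of all genes. Replicate 1 was the highest of the 3 samples on high fat diet for 8 of 9 members. None of the 8 tested members passed after adjustment, where 0% of all genes did, and Thbs4 and Tnmd had an unadjusted p under 0.05, a share to be read beside 6.56% of all genes higher by that measure. The log2 differences lay between 0.42 ± 0.21 (SE) for Scx and 1.05 ± 0.46 for Tnmd with limma adjusted p from 0.431 to 0.632, and their median was 0.80 beside 0.03 over all genes. Without replicate 1 on high fat diet the median was 0.24, with Chad at 0.10, Fmod at 0.17 and Kera at 0.17. The median was 1.12 without replicate 2 and 0.92 without replicate 3 on high fat diet. On normal chow it was 0.71, 0.45 and 1.18 without replicates 1, 2 and 3. With a sample left out the number of separate members can only stay or rise. No share of all genes is available for those settings, so the counts that follow are no result about the members. Without replicate 3 on normal chow the groups were separate for 5 members, namely Scx, Tnmd, Kera, Thbs4 and Comp. Without replicate 2 on high fat diet they were separate for 2, Tnmd and Cilp2, and without replicate 3 for 3, Scx, Tnmd and Thbs4.

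On normal chow no tendon gene separated the genotypes. All 9 members overlapped between WT and KO mice, while 8.15% of all genes were separate and higher in KO mice and 10.2% separate and lower. The KO mean was between 0.560 times (Chad) and 1.19 times (Scx) the WT mean. Log2 differences, KO minus WT, lay between -0.64 ± 0.76 (SE) for Chad and 0.18 ± 0.21 for Scx, with limma adjusted p from 0.628 to 0.849 beside 0.0586% of all genes called, and 0 of 8 members had an unadjusted p under 0.05, where 6.73% of all genes were higher and 9.93% lower. The 95% interval for Fmod ran from -2.33 to 1.38, that for Scx from -0.29 to 0.65 and that for Thbs4 from -0.68 to 0.48. Leaving out a sample can again only keep or raise the number of separate members, and no share of all genes is available to set beside it. Without replicate 1 of WT mice, the sample among the lowest 3 for 9 of 9 members, 3 members, Tnmd, Kera and Cilp2, were separate and lower in KO mice. Without replicate 3 of KO mice 1 member, Thbs4, was separate and lower, and without replicate 1 of KO mice 1, Scx, was separate and higher.

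On high fat diet KO mice had lower values than WT mice. The WT mean was 5.81 times the KO mean for Chad, 4.86 for Cilp2, 4.83 for Comp, 4.82 for Kera, 4.23 for Fmod, 3.23 for Mkx, 3.20 for Tnmd, 1.84 for Thbs4 and 1.16 times for Scx. The groups were separate for 8 of 9 members, all but Scx, beside 10.7% of all genes separate and lower. Replicate 1 carried much of the KO mean, and without it the WT mean was 15.6 times the KO mean for Chad, 11.02 for Cilp2, 9.99 for Fmod, 9.05 for Comp, 8.71 for Kera, 6.09 for Mkx, 4.30 for Tnmd, 2.03 for Thbs4 and 1.23 times for Scx. Without replicate 2 of KO mice the ratio fell for every member but Scx and Thbs4, to 3.99 for Chad and 3.11 for Fmod. Without replicate 3 of KO mice it fell for every member, to 4.95 for Chad and 3.48 for Fmod. These omissions were chosen after seeing the data. The log2 difference, KO minus WT, was -2.77 ± 0.76 (SE) for Chad, -2.48 ± 0.84 for Fmod, -2.21 ± 0.61 for Comp, -2.18 ± 0.58 for Kera, -1.99 ± 0.40 for Cilp2, -1.61 ± 0.46 for Tnmd, -0.90 ± 0.26 for Thbs4 and -0.19 ± 0.21 for Scx. None passed after adjustment, where 0.109% of all genes did. The limma adjusted p was lowest for Cilp2, at 0.0688, and highest for Scx, at 0.729. At an unadjusted p under 0.05, 7 of the 8 tested members were lower, beside 6.45% of all genes. The median over the 8 was -2.08 and over all genes -0.01. With replicate 1 of fat-fed KO mice left out, Cilp2 passed the threshold, at -2.49 with a limma adjusted p of 0.0307. Over all alternatives that p lay between 0.0307 and 0.239. Of all tested genes 13 were called with all samples, and 4 to 82 with 1 sample left out.

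The difference between the diet effects was itself tested as an interaction, the diet difference in KO mice minus that in WT mice. It was negative for 8 of 8 tested members and for 5324 of all 11945 tested genes. The members ranged from -0.37 ± 0.30 (SE) for Scx to -2.14 ± 1.07 for Chad, with a median of -1.70 beside 0.03 over all genes. No member passed after adjustment, and 0% of all genes did; the limma adjusted p lay between 0.672 and 0.903. Kera and Cilp2 had an unadjusted p under 0.05, at 0.0422 and 0.0136, where 2.7% of all genes were lower by that measure. These comparisons share samples, since the fat-fed WT samples enter both the diet difference in WT mice and the genotype difference on high fat diet.

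**Figure D2:**
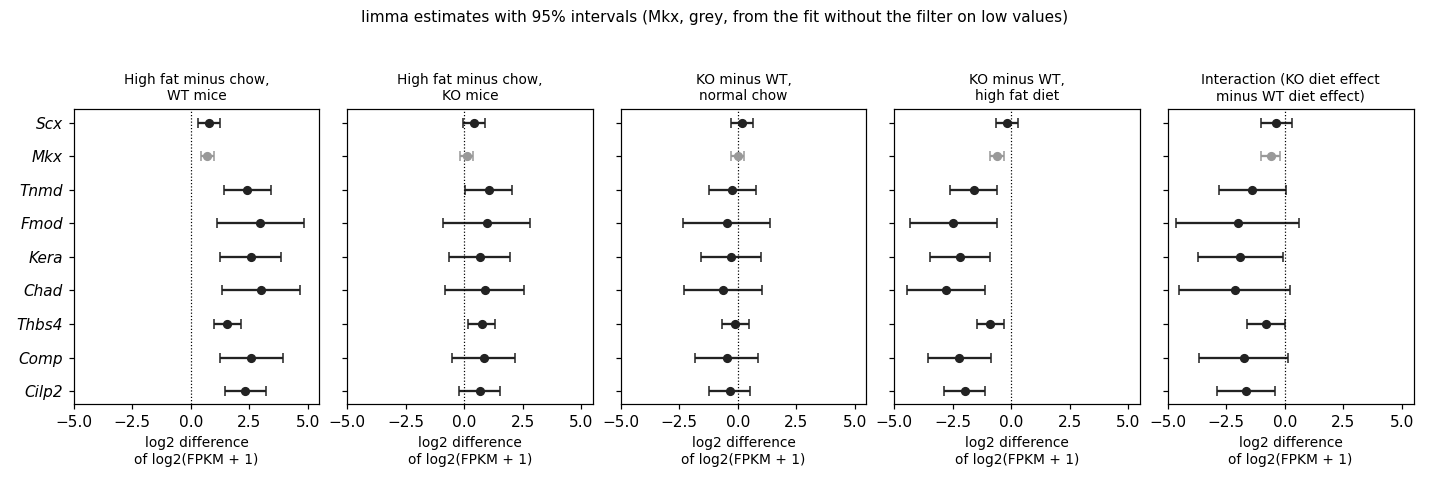
Differences of log2(FPKM + 1) for each tendon gene in the 5 comparisons, as limma estimates with 95% intervals; Mkx, in grey, comes from the fit without the filter on low values. The intervals of all 9 genes lie above 0 for diet in WT mice, those of all genes but Scx lie below 0 for genotype on high fat diet, and all 9 include 0 for genotype on normal chow.

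The group means stood in the same order at the top for every member, with fat-fed WT mice first and fat-fed KO mice second. For 8 members the first group was separate from the second, beside 10.7% of all genes separate and lower in fat-fed KO mice. For all 9 the second overlapped with the next, a count without a share of all genes to set beside it. Chow-fed WT mice had the next highest mean for 8 members, and chow-fed KO mice for Scx. Sample by sample, replicate 2 of fat-fed WT mice was among the 3 highest for 9 members and replicates 1 and 3 for 8, and replicate 1 of fat-fed KO mice ranked 4 for 8. The balance among members also differed: Fmod exceeded Thbs4 in 5 samples, all 3 fat-fed WT samples among them, and Thbs4 exceeded Fmod in the other 7. Fmod made up 16.5% to 42.0% of the summed level in chow-fed WT mice and 42.2% to 49.9% in fat-fed WT mice. In KO mice its share was 14.5% to 35.6% with chow and 13.5% to 44.4% with the fat diet, highest in replicate 1.

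Across the 12 samples the members varied together. As a description, Pearson's r of log2(FPKM + 1) over the 36 pairs lay between 0.589 and 0.987 with a median of 0.903, and over the 28 pairs without Scx between 0.846 and 0.987. The samples share their group structure, and with the group means subtracted the 36 values lay between 0.164 and 0.972 with a median of 0.660. Set against the mean of the other tested members, Tnmd, Fmod, Kera and Comp were each the gene with the highest r of 11457 and Chad, Thbs4 and Cilp2 the second, while Scx was at place 89 with r = 0.70. With the group means subtracted the places were 3 for Fmod and Kera, 6 for Comp, 18 for Tnmd, 20 for Chad, 175 for Cilp2, 401 for Thbs4 and 2089 for Scx.

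Other genes of tendon and dense connective tissue were read beside the members. Of 32 such genes 31 were tested, and 0 of 31 passed limma's adjusted threshold in any of the 5 comparisons. For diet in WT mice 7 of 31 were higher at an unadjusted p under 0.05, beside 4.42% of all genes, and 1 was lower, beside 3.7%. The WT diet groups were separate and higher with the fat diet for 8, beside 6.2% of all genes, and separate and lower for 2, beside 6.88%. Col11a1 and Col12a1 are among the 7 and the 8, and would not have passed the filter without the fat-fed WT samples. The median log2 difference was 0.13. For genotype on high fat diet 9 of 31 were higher in KO mice at an unadjusted p under 0.05, beside 9.79% of all genes, and 5 were lower, beside 6.45%, with Col11a1 and Col12a1 again among the 5. The fat-fed groups were separate for 5 that were higher in KO mice, beside 13% of all genes, and for 4 that were lower, beside 10.7%, and the median was 0.31. Epyc, an epiphycan proteoglycan, stayed below 1 FPKM in every sample.

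Col1a1, Col3a1 and Dcn are given for their level. Col1a1, a chain of type I collagen, was 33.9, 64.4 and 90.9 FPKM in chow-fed WT mice and 123, 108 and 146 FPKM in fat-fed WT mice. In KO mice Col1a1 was 113, 84.4 and 79.6 FPKM with chow and 112, 162 and 114 FPKM with the fat diet. Its log2 difference was 1.081 ± 0.30 (SE) for diet in WT mice and 0.03 ± 0.30 for genotype on high fat diet, where the fat-fed groups overlapped. Col3a1, the type III collagen chain, was 48.7, 80.7 and 149 FPKM in fat-fed WT mice and 180.1, 268 and 217 FPKM in fat-fed KO mice. Decorin (Dcn), a collagen-binding proteoglycan, had group means between 380.2 and 509.6 FPKM, the highest in fat-fed KO mice, and its log2 difference for genotype on high fat diet was 0.27 ± 0.20 (SE) with a limma adjusted p of 0.554. The ratio of Fmod to Col1a1 was 0.194, 0.434 and 0.516 in chow-fed WT mice and 1.01, 2.29 and 1.10 in fat-fed WT mice. In fat-fed KO mice that ratio was 0.806, 0.0725 and 0.209, below each WT sample on the same diet.

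A few genes of the list resembled the members. Col11a1, a minor fibrillar collagen chain, was 0.0831, 0.436 and 0.252 FPKM in chow-fed WT mice and 1.04, 1.23 and 1.66 FPKM in fat-fed WT mice, with a log2 difference of 0.88 ± 0.17 (SE) and a limma adjusted p of 0.0966. In KO mice Col11a1 was at most 0.692 FPKM. It passed the filter only through the group where it is high, so its differences and p-values are no support. Prg4, the lubricin of joint and tendon surfaces, was 3.23, 5.80 and 3.58 FPKM in chow-fed WT mice and 7.62, 17.1 and 13.2 FPKM in fat-fed WT mice, with an adjusted p of 0.189 in limma. Angptl7, a secreted angiopoietin-like protein, was 33.4, 49.8 and 31.0 FPKM in fat-fed WT mice and 17.4, 1.33 and 4.22 FPKM in fat-fed KO mice. On chow Angptl7 was at most 10.7 FPKM. For genotype on high fat diet the log2 difference was -0.76 ± 0.17 for Col11a1 and -2.65 ± 0.66 for Angptl7, and for the interaction -0.72 ± 0.24 and -2.65 ± 0.93. Cilp, the relative of Cilp2, ran the other way. Cilp was 6.46, 12.2 and 19.6 FPKM in fat-fed WT mice and 60.3, 78.1 and 46.2 FPKM in fat-fed KO mice, a log2 difference of 2.27 ± 0.39 (SE) with a limma adjusted p of 0.0601. On normal chow Cilp was 10.1, 11.003 and 26.0 FPKM in WT mice and 33.2, 45.0 and 45.8 FPKM in KO mice, at 1.45 ± 0.39 and an adjusted p of 0.263 in limma. Tgfbi, a matrix protein induced by TGF-beta, had the second lowest p of the list for genotype on normal chow, at 0.57 ± 0.24. For diet in KO mice the genes with the lowest p were Sparc, a collagen-binding glycoprotein, at 0.57 ± 0.26 and elastin (Eln) at -0.33 ± 0.18. Without replicate 3 of fat-fed WT mice, Cilp and Col3a1 passed the threshold for genotype on high fat diet. Of all tested genes 13 were called in that comparison with all samples, and 4 to 82 with 1 sample left out.

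The junction and signalling genes near tendon were also read. Of 5 genes of the myotendinous junction, where muscle fibres anchor to tendon, 0 passed in any of the 5 comparisons with limma. At an unadjusted p under 0.05 for diet in WT mice 1 was higher and 1 lower, beside 4.42% and 3.7% of all genes. Itga7, the most abundant of them, encodes a laminin-binding integrin chain and differed by 0.08 ± 0.12 (SE, log2) for diet in WT mice. Of 11 genes of TGF-beta signalling, which acts upstream of Scx in tendon development, 0 passed in any of the 5. By the unadjusted measure 2 were higher and 0 lower for diet in WT mice, beside the same shares of all genes. Smad3, the most abundant of these and a signal transducer, differed by -0.15 ± 0.17 for diet in WT mice and by -0.57 ± 0.17 for genotype on high fat diet, with a limma adjusted p of 0.136.

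Markers of neighbouring tissues were listed to see what else differed between the samples. Keratin genes were not among them. The study reports many keratin genes as strongly higher with the high fat diet in WT mice. It also lists many as lower in KO than in WT mice on that diet. All 10 cartilage markers, among them Acan, Col2a1 and Sox9, stayed below 1 FPKM in every sample, and their sum ranged from 0.902 to 2.63 FPKM. It was 2.54, 1.45 and 2.63 FPKM in fat-fed WT mice and at most 1.55 FPKM elsewhere. Of these markers only Col2a1 had all fat-fed WT samples above the others, at 0.288, 0.253 and 0.673 FPKM against at most 0.166 FPKM. The 7 bone markers summed to 1.64, 1.29 and 43.4 FPKM in fat-fed WT mice and to at most 2.69 FPKM elsewhere, and osteocalcin (Bglap) was 21.5 FPKM in replicate 3. Without that replicate the 8 log2 differences for diet in WT mice lay between 0.85 and 3.01 with a median of 2.46. The 10 fibroblast markers summed to 968, 1127 and 1167 FPKM in chow-fed WT mice and 564, 1194 and 1117 FPKM in fat-fed WT mice, and to 1206 to 1746 FPKM in KO mice. For diet in WT mice 10 of 10 fibroblast markers had a negative difference, as did 6399 of all 11945 tested genes. At an unadjusted p under 0.05, 2 of them were lower, beside 3.7% of all genes. For genotype on high fat diet 10 of 10 fibroblast markers had a positive difference, KO minus WT, as did 5631 of all 11945 tested genes. At an unadjusted p under 0.05, 7 of the 10 were higher, beside 9.79% of all genes. On normal chow 9 of 10 fibroblast markers and 7 of 7 adipocyte markers also had a positive difference, as did 5371 of 11945 genes. There 2 and 1 of them had an unadjusted p under 0.05, beside 6.73% of all genes higher by that measure. The 7 adipocyte markers summed to 591 to 1730.1 FPKM in fat-fed WT mice and to 1800.2 to 2272 FPKM in fat-fed KO mice. Of these, 5 of 7 were higher in fat-fed KO mice at an unadjusted p under 0.05, beside 9.79% of all genes. In replicate 1 of fat-fed WT mice Fabp4 was 584 FPKM and made up nearly all of the sum. Adipoq was 1.40 and Plin1 0.609 FPKM there, and at least 21.2 and 6.53 FPKM elsewhere. Myh7, a myofibre marker, was 3.20 FPKM in that sample and at least 16.9 FPKM elsewhere. Without that sample the 8 log2 differences for diet in WT mice lay between 0.88 and 3.30 with a median of 2.61. The most abundant marker of each list was Fabp4 for adipocytes, Gsn for fibroblasts, Cd79a for lymphoid cells and Acta1 for muscle fibres. No marker of these lists passed the adjusted threshold with limma in any comparison. The part of other cell types in the tendon gene differences was not tested. With the 3 samples rich in lymphoid genes left out, a choice made after seeing the data, the median over the 8 members was 2.73 for diet in WT mice, 1.30 for diet in KO mice, -0.56 for genotype on normal chow and -1.27 for the interaction. This leaves 1 chow-fed KO sample, which is assumed to vary like the other groups, and for diet in KO mice the 8 differences then ranged from 0.42 to 2.18. No such sample was in the fat-fed groups, where the genotype median stayed at -2.08.

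**Figure D3:**
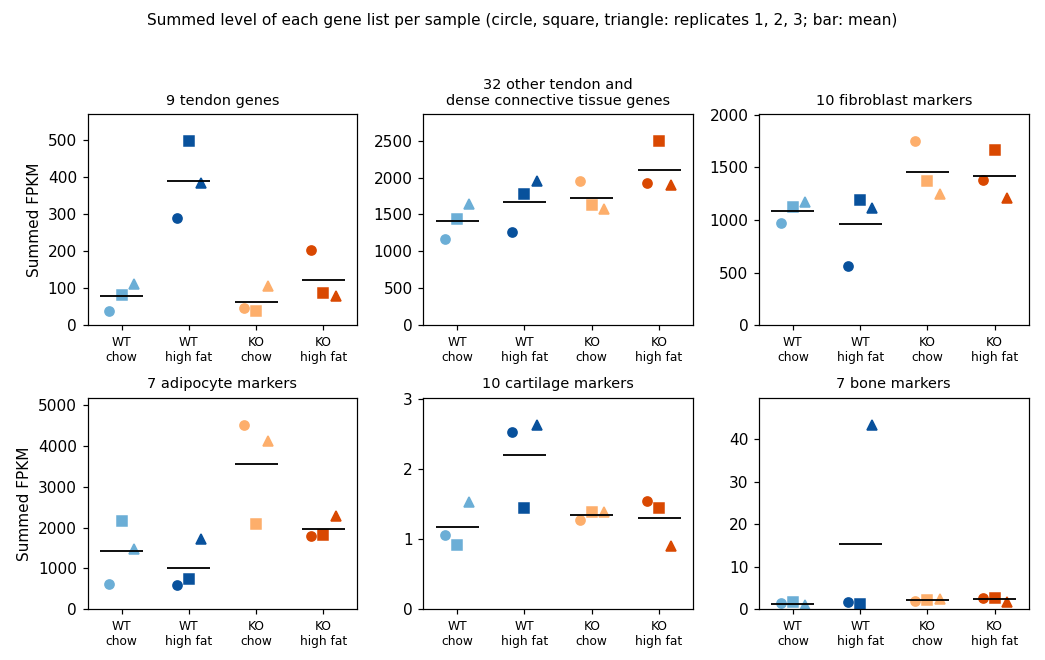
Summed FPKM of the 9 tendon genes, 32 other tendon and dense connective tissue genes and 4 marker lists in each sample, by group; symbols are the 3 mice, the bar is the group mean and each axis starts at 0. Tendon genes are highest in the 3 fat-fed WT samples, at 289, 496 and 383 FPKM, where fibroblast markers sum to 564, 1194 and 1117 FPKM and bone markers stand out in replicate 3 alone.

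The 10 genes most like the members were taken by Pearson's r with the mean standardised log2(FPKM + 1) of the 8 tested members over 12 samples, among 11456 genes with a mean of at least 1 FPKM. They were Cpxm2 (r = 0.96), 1500015O10Rik (0.92), Angptl7 (0.92), Wif1 (0.91), Fgf1 (0.91), Prg4 (0.89), Col11a2 (0.87), Tnc (0.87), Med26 (0.86) and 1300010F03Rik (0.85). Of these, Wif1 is a secreted Wnt inhibitor, Fgf1 a growth factor, Col11a2 a minor fibrillar collagen chain and Tnc, tenascin C, a matrix glycoprotein of tendon. The samples share groups, and with group means subtracted 0 of the 10 remained among the 10 most alike. Angptl7 then kept r = 0.91 and Cpxm2, a carboxypeptidase-like protein, r = 0.86, while Med26, a Mediator subunit, had 0.46.

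Cpxm2 was 2.40, 4.07 and 5.62 FPKM in chow-fed WT mice and 8.14, 11.7 and 10.6 FPKM in fat-fed WT mice. In KO mice Cpxm2 was 4.26, 3.11 and 5.27 FPKM with chow and 6.25, 5.29 and 4.37 FPKM with the fat diet. Wif1 was 2.62, 3.10 and 4.06 FPKM in fat-fed WT mice and at most 1.23 FPKM in the other 9 samples. It passed the filter and the mean of 1 FPKM only through the group where it is high. Its place among the 10 and its separation are therefore no support. Col11a2 and 1500015O10Rik passed the filter without that group but reached the mean of 1 FPKM only with it. Tnc was 1.58, 2.96 and 3.41 FPKM in fat-fed WT mice and 1.68, 1.03 and 0.732 FPKM in KO mice on that diet. The fat-fed WT samples lay above the other samples for Cpxm2 and Wif1, and for Tnc they overlapped with KO mice.

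**Figure D4:**
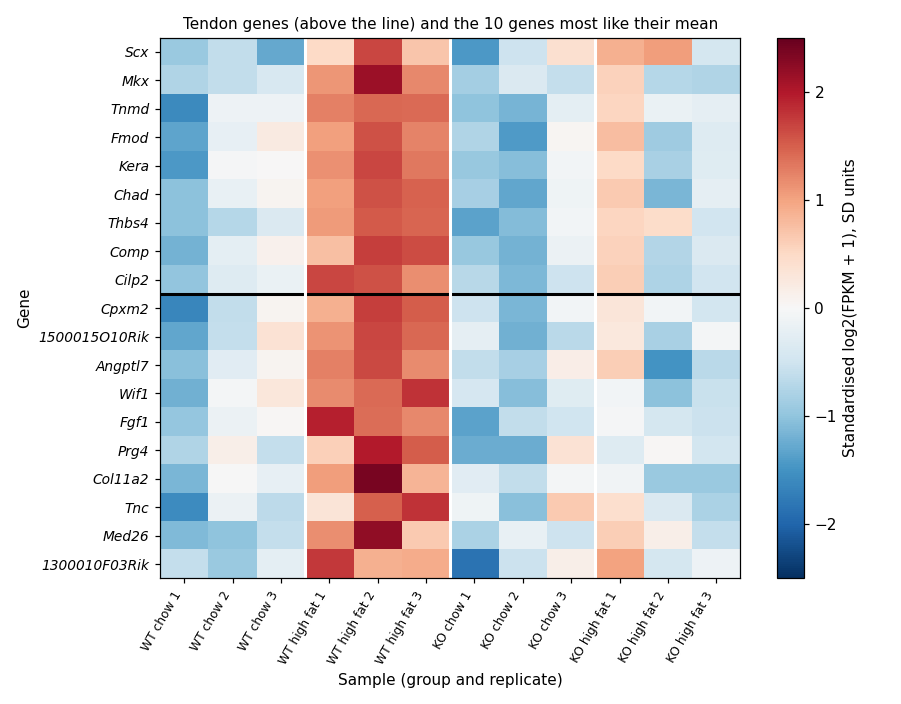
Standardised log2(FPKM + 1) in SD units of the 9 tendon genes, above the line, and of the 10 genes most like the mean of the 8 tested ones, in 12 samples; red is above and blue below the gene's own mean. The 3 fat-fed WT samples are red for all 19 genes, and replicate 1 of fat-fed KO mice is red for the 9 tendon genes.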

How the data were processed

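Hind limb muscle RNA of 12 mice was sequenced with paired-end reads. The authors deposited FPKM values by gene symbol for each sample, in 23179 rows that hold 22923 distinct symbols, with replicates not pooled; a repeated symbol was represented by its row of highest mean FPKM; the submitters' processing notes name TopHat2 2.0.8b, Cuffdiff 2.1.1 and build mm10, and the settings and annotation are not given in the sources used here. The unit was read from the values and the tools. Depth in reads is unknown; from the steps between low values, the samples differed in depth by about 1.36 times at most, which limits genes with low FPKM.

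The members and all gene lists were chosen with earlier results of these data known, and so were the rules for naming genes. Samples were grouped by title. A gene was tested where 3 or more samples reached 1 FPKM, which left 11945 genes. The limma package (3.58.1, in R 4.3.3) was fitted to log2(FPKM + 1), with a mean for each of 4 groups, 8 residual degrees of freedom and a variance that follows expression. The Benjamini-Hochberg adjustment ran over all tested genes, and an adjusted p under 0.05 was called. The design had foreseen this test for FPKM. The named genes are all members, Cryab and Hspb2, Col1a1, Col3a1 and Dcn for level, in each comparison up to 3 other tendon genes past the threshold or else the 2 with the lowest p, the 10 genes most like the members, and the most abundant gene of the marker, junction and TGF-beta lists with any past the threshold; further genes were chosen after their values were seen. One marker list is not reported here. Nothing says whether the 3 mice of a group were handled together, and if they were, handling cannot be told apart from the group. The p-values rest on the spread between samples within groups, pooled over the 4 groups.

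Alternatives were a pseudocount of 0.1, no filter, median-of-ratios scaling, a fit with only the groups compared, a block for the replicate number and each sample left out; quantile normalization, the omission of 3 samples rich in lymphoid genes, ratios of means with a sample left out and counts of separate groups with a sample left out were added after seeing the data. On simulated data made for diet in KO mice, limma called 100 of 100 genes shifted by 1 log2, 100 of 100 shifted by 2 and 13 of 11745 unchanged genes. The shifted genes had a small spread. These counts therefore do not give the power for members with a larger spread, such as Fmod with a SE of 0.84. Python 3.11.15 with NumPy 2.4.6, pandas 2.3.3 and matplotlib 3.10.9 gave the other values.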

Additional observations from a re-analysis of the deposited data

How the results depend on the processing

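In refits under the alternatives, 549 of the members' log2 differences kept their direction and side of the threshold, 1 passed it and 10 changed sign. The 10 all leave out 1 sample. For genotype on normal chow Tnmd stood at 0.068 without WT replicate 2 and 0.072 without WT replicate 3, in a range of -0.83 to 0.072 over the samples left out. Kera stood at 0.039 and 0.060 (range -0.93 to 0.060), Fmod at 0.089 without WT replicate 3 and 0.13 without KO replicate 2 (range -1.24 to 0.13), Thbs4 at 0.034 without WT replicate 3 and 0.096 without KO replicate 1 (range -0.38 to 0.096), and Scx at -0.015 without KO replicate 3 (range -0.015 to 0.37). For genotype on high fat diet Scx stood at 0.0043 without KO replicate 3 (range -0.30 to 0.0043). None of these was past the threshold. Members called numbered 0 in every setting except 1, Cilp2, for genotype on high fat diet without KO replicate 1, so the count lay between 0 and 1 with a sample left out.

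Counts over all tested genes moved more. For diet in WT mice 12 were called, and 3 with only the groups compared, 1 without the 3 samples rich in lymphoid genes and 1 to 32 with 1 sample left out. For diet in KO mice 0 were called (784 higher and 565 lower at an unadjusted p under 0.05, limma), and 6 without the filter, 5 after quantile normalization, 7 with only the groups compared and 0 to 4 with a sample left out. For genotype on normal chow 7 were called, and 4 with only the groups compared and 4 to 14 with a sample left out. For genotype on high fat diet 13 were called, and 24 without the filter, 27 after quantile normalization, 8 with only the groups compared and 4 to 82 with a sample left out; other tendon genes numbered 0 to 2 there. For the interaction 0 were called, and 1 without the filter and 0 to 1 with a sample left out. Members separate between groups numbered 1 to 5 for diet in KO mice, and 0 to 1 higher and 0 to 3 lower for genotype on normal chow. Leaving out a sample cannot lower these counts, and they have no share of all genes beside them. Of the 10 genes most like the members, 0 remained with group means subtracted. The causes were not tested.

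Same-numbered samples did not deviate together: the correlation of their deviations ranged from -0.806 to 0.387 and was over 0.1 in 2 of 12 pairs. The samples were therefore not paired by number. Samples rich in lymphoid genes enter these correlations, so they cannot show whether same-numbered mice were handled together. Under the replicate block 7 genes were called for diet in WT mice, 0 for diet in KO mice, 4 for genotype on normal chow, 5 for genotype on high fat diet and 0 for the interaction, and 0 members in each.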
